A study of Mus musculus with 24 samples.

Results

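The protein components of the cytosolic ribosome were followed through culture of mouse reticulocytes, red cells that have lost the nucleus but still hold mRNA and ribosomes. Genes were taken by symbol, Rpl or Rps followed by a number and an optional a or x, together with Rplp0, Rplp1, Rplp2 and Rpsa. This gave 57 genes on 74 probes, 35 of the large and 22 of the small ribosomal subunit, among 16593 gene names on the array. A probe was tested where its detection p-value was below 0.01 on at least 3 of the 24 arrays, and the brightest such probe stood for its gene. Which transcripts or pseudogenes a probe can bind was not checked, so a gene's value is that of its probe. Of the 57 genes 50 were tested, 31 large and 19 small, among 4846 genes in all. The 7 without a probe past this filter were Rpl6, Rpl14, Rpl17, Rplp2, Rps15a, Rps23 and Rpsa. On all 24 arrays 37 of the 50 were detected, and 5 (Rpl4, Rpl7a, Rpl21, Rpl22 and Rpl27a) were detected on no wild-type array at 0 h.

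Blood rich in reticulocytes was drawn and cultured, and total RNA of the cells was hybridised to Illumina bead arrays at 0, 12 and 24 h of culture. The authors' key to the columns writes 15 h for the 8 arrays that the labels place at 12 h, so the length of the intervals before and after that time is uncertain. Each time has 3 wild-type and 5 mutant biological replicates, all from adult male C57BL/6J mice. The labels call the second genotype mutant and name neither the gene nor the allele. How the animals came to be rich in reticulocytes is likewise not given in the sources used here.

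A ribosome is built from a small subunit, which reads the mRNA, and a large subunit, which joins the amino acids, and each holds many different proteins around its ribosomal RNA. Reticulocytes make no new mRNA. They translate stored message, chiefly for globin, and degrade their ribosomes and mitochondria as they mature. The mRNAs of ribosomal proteins begin with a run of pyrimidines, the terminal oligopyrimidine tract, through which their translation and stability are controlled together, in part by the mTOR pathway and the binding protein Larp1.

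Levels are log2 intensities after background correction and quantile normalization, and a difference is a log2 difference ± standard error from limma, adjusted over all 4846 genes with a threshold of 0.05. Levels of different probes cannot be compared with each other, so only changes of a probe between arrays are read. The 0 h arrays stood apart before any normalization. Their median raw intensities were 132 to 298, against 38.7 to 44.7 later, and 4 of them, wild-type arrays 2 and 3 and mutant arrays 1 and 2, exceeded 200. Probes detected per array made up 2.17% to 4.62% in wild type and 3.60% to 17.0% in mutant at 0 h, and later 4.92% to 7.72% and 10.2% to 28.8%. Of 11 erythroid marker genes with a probe, 4 to 9 were detected on every array of a group, and Epb42 was detected in no group. In such bulk RNA, fewer cells of a type and less RNA per cell cannot be told apart.

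The start sites of some genes on which the results turn are shown because the pyrimidine tract lies there. Promoter sequence from RefSeq (mouse build GRCm38.p6) was available for 48 of the 57 genes, at 57 start sites. Each sequence below runs 5′ to 3′ from 20 bases before the annotated start to 25 bases from it, and capitals mark a run of at least 8 pyrimidines that comes within 5 bases of the start. 
Rps27, chr3:90213624-90213668, minus strand: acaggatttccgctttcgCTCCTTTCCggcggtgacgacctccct
Rps6, chr4:86857343-86857387, minus strand: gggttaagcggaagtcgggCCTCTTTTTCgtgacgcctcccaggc
Rpl28, chr7:4792945-4792989, plus strand: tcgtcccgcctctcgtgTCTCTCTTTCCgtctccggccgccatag
Rpl38, chr11:114668560-114668604, plus strand: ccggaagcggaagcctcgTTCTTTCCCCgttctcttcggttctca
Rpl35, chr2:39005107-39005151, minus strand: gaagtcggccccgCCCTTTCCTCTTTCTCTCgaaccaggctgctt
Rps10, chr17:27635220-27635264, minus strand: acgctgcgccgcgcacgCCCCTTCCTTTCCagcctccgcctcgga
Rps13, chr7:116334166-116334210, minus strand: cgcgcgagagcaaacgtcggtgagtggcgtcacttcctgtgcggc
Rps2, chr17:24720043-24720087, plus strand: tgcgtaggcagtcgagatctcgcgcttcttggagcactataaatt
Such a run was found at 19 of the 57 ribosomal protein starts (33.3%) and at 9.38% of all 32851 starts in the table. The windows of Rps13 and Rps2 hold no such run. An annotated start can lie away from the base where transcription begins, so a window without the run says only that these letters are not in it. In the 250 bases before to 50 after the start, on either strand, the ETS letters CCGGAAG stood at 35.1% of ribosomal protein starts and 8.86% of all starts. The YY1 letters AAGATGG stood at 19.3% and 6.34%, the Sp1 letters GGGCGG at 63.2% and 35.7%, and the TATA letters TATAAA at 8.77% and 13.6%. The ETS letters are shown in capitals at 2 of these promoters, Rpl38, whose window overlaps the one above, and Rps7.
Rpl38, chr11:114668520-114668584, plus strand: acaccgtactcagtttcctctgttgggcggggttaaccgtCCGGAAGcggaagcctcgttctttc
Rps7, chr12:28635949-28636013, minus strand: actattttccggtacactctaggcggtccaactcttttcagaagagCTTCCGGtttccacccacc

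Ribosomal protein mRNAs fell together between 12 and 24 h of culture, in wild type and in mutant, although in mutant the list's median turned to 0.35 with the authors' processed values. In wild type 26 of the 50 genes fell, 14 of the large and 12 of the small subunit, where 1.88% of all tested genes fell and 3.94% rose, and the other 24 did not pass the test. In mutant 38 fell, 20 large and 18 small, and 2 rose (Rpl7a and Rpl27a), where 14.6% of all genes fell and 12.6% rose. The median difference over the 50 genes was -0.82 in wild type and -0.84 in mutant, against -0.06 and -0.12 over all 4846 genes. All 26 genes that fell in wild type also fell in mutant.

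Rpl12 sits at the base of the stalk on which elongation factors land. Its level in wild type was 10.91, 10.86 and 11.17 at 12 h and 9.53, 9.59 and 10.12 at 24 h, a difference of -1.23 ± 0.17 (adjusted p = 5.9e-05). In mutant the 5 arrays read 11.50, 11.70, 11.72, 11.74 and 11.61 at 12 h and 10.04, 10.10, 10.37, 10.25 and 10.08 at 24 h, a difference of -1.49 ± 0.13 (adjusted p = 2.25e-08). In both genotypes every 24 h array lay below every 12 h array. Rplp1, an acidic protein of the same stalk, read 14.44, 14.34 and 14.91 in wild type at 12 h and 13.19, 13.13 and 13.82 at 24 h. In mutant it read 14.34, 14.34, 14.44, 14.65 and 14.34, then 13.52, 13.32, 13.44, 13.60 and 13.37. It fell by 1.18 in wild type and by 0.97 in mutant (adjusted p = 1.06e-05 and 6.37e-07), again with no overlap.

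Rps6, the small-subunit protein that S6 kinases phosphorylate downstream of mTOR, also fell. Its wild-type level was 10.08, 9.86 and 10.67 at 12 h and 8.88, 8.81 and 9.32 at 24 h, and it fell by 1.20 ± 0.27 (adjusted p = 0.00759). Its mutant level was 10.43, 10.80, 11.03, 10.86 and 10.67 at 12 h and 9.56, 9.44, 9.67, 9.85 and 9.29 at 24 h, a difference of -1.20 ± 0.21 (adjusted p = 0.000189). The groups did not overlap in either genotype. Rps13, whose promoter window above holds no pyrimidine run, went from 9.69, 9.40 and 9.77 to 8.45, 8.42 and 8.74 in wild type (-1.08 ± 0.27, adjusted p = 0.0133). In mutant it went from 9.62, 10.07, 10.46, 10.62 and 10.21 to 8.56, 8.68, 8.89, 8.70 and 8.62 (-1.50 ± 0.21, adjusted p = 8.06e-06). That was the most negative difference of any ribosomal protein gene in mutant over this interval. Rpl28, with a run of 11 pyrimidines at its start, went from 12.28, 12.23 and 12.75 to 11.17, 11.02 and 11.53 in wild type (-1.18 ± 0.15, adjusted p = 2.35e-05). In mutant it fell from 12.78, 12.81, 12.92, 12.88 and 12.72 to 11.90, 11.80, 11.78, 11.64 and 11.65 (-1.07 ± 0.12, adjusted p = 4.94e-07).

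The late difference was set beside the pyrimidine run. Among tested genes with promoter sequence, the 16 with a run had a median difference of -0.81 in wild type and -0.83 in mutant, and the 26 without had -0.82 and -0.92. Of those with a run 8 fell in wild type and 11 in mutant, and of those without 15 and 23. No test was run on this split.

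The largest wild-type falls past the threshold with no overlap were those of Rpl23a (-1.30 ± 0.22), Rpl35 (-1.24 ± 0.17), Rpl12, Rps6 and Rplp1. In mutant they were those of Rps13, Rpl12, Rps15 (-1.38 ± 0.44, adjusted p = 0.0225), Rps12 (-1.21 ± 0.16) and Rpl35a (-1.21 ± 0.16). Over the whole list, the 24 h arrays lay entirely below the 12 h arrays for 38 of the 50 genes in wild type and for 40 in mutant. Over all genes tested that was so for 21.7% and 17.5%. Without wild-type 12 h array 3, 16 genes passed the test in wild type in place of 26.

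Of the 50 genes 46 had a difference below 0 in both genotypes, whether or not it passed the test, and 4 did not. Rpl7a, a large-subunit protein, rose in mutant from 7.25, 6.89, 6.84, 6.48 and 6.52 at 12 h to 8.13, 8.14, 7.99, 7.57 and 7.93 at 24 h (1.16 ± 0.25, adjusted p = 0.00139). In wild type it read 6.88, 6.92 and 7.84 and then 7.39, 7.35 and 7.64, which overlap. Rpl27a, also of the large subunit, rose in mutant by 0.54 ± 0.18 (adjusted p = 0.0284), from a range of 5.08 to 5.53 to one of 5.58 to 6.13. Rplp0, the stalk protein to which Rplp1 and Rplp2 attach, did not pass the test in either genotype (-0.43 in wild type, 0.17 in mutant). Rpl23 read 13.04, 13.27 and 12.88 and then 13.04, 13.19 and 13.19 in wild type, where it did not pass (0.08 ± 0.09), and fell in mutant by 0.61 ± 0.07. Of these 4 probes, those of Rpl7a, Rpl27a and Rplp0 were not detected on all 24 arrays.

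**Figure D1:**
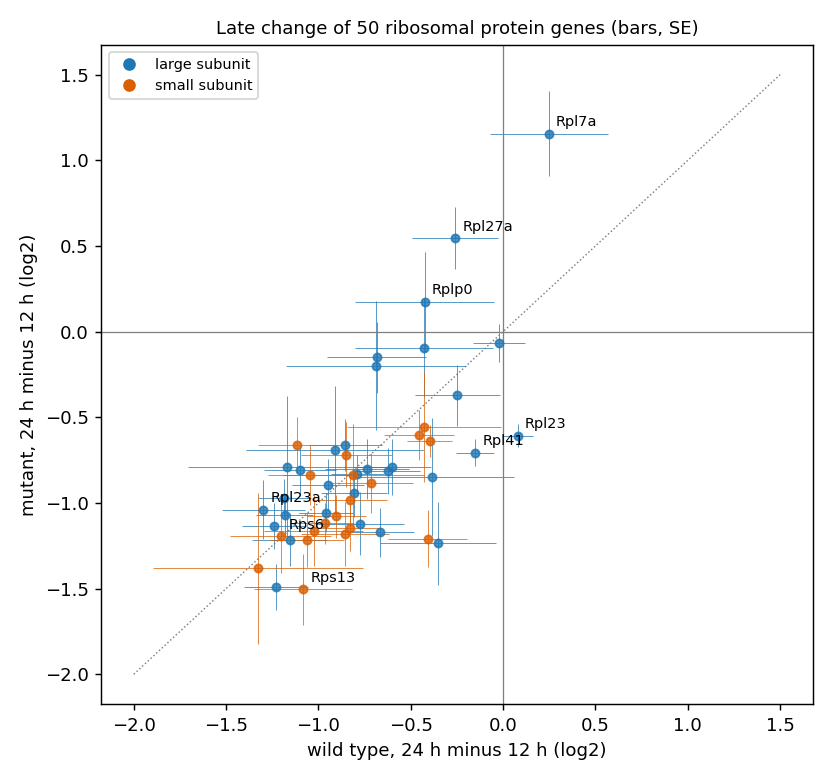
Difference between 24 and 12 h (log2) of each of the 50 ribosomal protein genes in wild type (horizontal) and mutant (vertical), with standard errors as bars. Under the main scaling most points lie in the lower left, where both differences are below 0, as they were for 46 genes, and Rpl7a stands at 0.25 in wild type and 1.16 in mutant.

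The size of the late fall was compared between genotypes as an interaction. Of the 50 genes 2 passed, both more negative in mutant, where 63 of all 4846 genes (1.3%) passed, 0.908% as higher and 0.392% as lower. Rpl23, at the face of the large subunit that meets the small one, differed by -0.69 ± 0.11 (adjusted p = 0.000535). A second Rpl23 probe, also detected on all 24 arrays, had an interaction of -0.24 ± 0.25 and did not pass (adjusted p = 0.752). Rpl41, a very short protein at the same interface, differed by -0.56 ± 0.13 (adjusted p = 0.0301). In wild type Rpl41 went from 14.70, 14.70 and 14.75 to 14.49, 14.56 and 14.65, and in mutant from 14.44, 14.44, 14.75, 14.70 and 14.75 to 14.09, 13.68, 13.68, 14.09 and 14.02. These probes are among the 30 brightest on nearly every array, on 23 arrays for Rpl23 and on all 24 for Rpl41 and Rplp1. There, quantile normalization gives the same value to the same rank. Arrays of a group then share identical values, up to 4 for Rpl23 and Rps12 and 3 for Rplp1, and their spread is understated. Next in the order of p were Rps27 (-0.80, adjusted p = 0.161) and Rpl27a (0.81, adjusted p = 0.208), neither of which passed.

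The late fall was read against the other genes detected on all 24 arrays, which a shift of a whole array moves equally. The 37 ribosomal protein genes detected everywhere had a median difference of -0.85 in wild type and -0.98 in mutant, and 26 and 36 of them fell. The 144 other genes detected everywhere had -0.05 and 0.06, and 16 (11.1%) and 29 (20.1%) of them fell while 23 (16%) and 47 (32.6%) rose. Within each array, the median of the 37 minus the median of the 144 has no meaning as a level, since the probes differ, but it can be followed from array to array. In wild type it was 0.47, 0.17 and 0.75 at 0 h, 0.33, -0.07 and 0.50 at 12 h, and -0.69, -0.89 and -0.44 at 24 h. In mutant it was 1.25, 1.65, 1.88, 1.62 and 2.06 at 0 h, 1.07, 1.34, 1.47, 1.67 and 1.29 at 12 h, and -0.05, -0.12, 0.07, 0.09 and 0.07 at 24 h. In each genotype all 24 h arrays lay below all 12 h arrays, and at each time all mutant arrays lay above all wild-type arrays. Both sets had to be detected on every array, and wild-type arrays at 0 h detected only 2.17% to 4.62% of probes. Genes too low in wild type to be detected are thus left out, so the genotype difference of the gap is not independent of this filter. A gene that lost detection by 24 h is left out as well, so the late change of the gap is not independent of it either. Under the 4 other scalings used here the group means of this gap were 0.24 to 0.26 at 12 h and -0.69 to -0.62 at 24 h in wild type. In mutant they were 1.29 to 1.40 and 0.00346 to 0.0129. Centring moves both medians of an array equally, so the 2 median centrings give the same gap by construction. The authors' values follow the raw intensity along a straight line on each array, which largely fixes their gap too. Likeness of the gap over these scalings is therefore no separate check of the late fall.

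Between genotypes ribosomal protein genes differed in both directions under the main scaling, and the splits changed with the scaling. At 0 h 21 of the 50 were higher in mutant and 5 lower, where 42.5% of all genes passed, 34.1% as higher and 8.4% as lower. At 12 h 18 were higher and 6 lower, where 50.2% of all genes passed, 34.3% higher and 15.9% lower. At 24 h 13 were higher and 5 lower, where 16.8% passed, 8.61% higher and 8.17% lower. Under this scaling the shares at 0 and 12 h are near those of all genes tested. The median difference of the 50 was 0.44, 0.37 and 0.31 at the 3 times, against 0.26, 0.29 and 0.17 over all genes and -0.79, -0.63 and -0.31 over the 144 others detected on all arrays. Of those 144, 28 (19.4%), 27 (18.8%) and 19 (13.2%) were higher and 81 (56.2%), 75 (52.1%) and 49 (34%) lower. The filter that chose the 144 keeps no gene undetected on a wild-type array, so their genotype differences are not independent of it. Without the 4 arrays of high background, which leaves 1 wild-type and 3 mutant arrays at 0 h, 20 of the 50 ribosomal protein genes were higher and 6 lower at 0 h, where 56.2% of all genes passed. In that fit the lone wild-type array is assumed to vary like the arrays of the other groups, and its p-values include no spread of wild type at 0 h.

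Higher in mutant at all 3 times were 11 genes: Rpl9, Rpl23, Rpl24, Rpl37a, Rps4x, Rps10, Rps12, Rps16, Rps19, Rps20 and Rps27. Rps27, a zinc-binding protein of the small subunit, showed the highest mutant excess of the 50 at 12 and 24 h under the main scaling. Its wild-type level was 10.63, 10.12 and 10.58 at 0 h, 9.92, 9.53 and 9.97 at 12 h, and 9.56, 9.20 and 9.44 at 24 h. In mutant it read 11.61, 12.07, 12.12, 11.97 and 12.12, then 11.72, 11.90, 12.28, 12.05 and 12.15, and last 10.55, 10.53, 11.06, 11.18 and 10.74. Every mutant array lay above every wild-type array of its time. The differences were 1.53 ± 0.19, 2.21 ± 0.19 and 1.42 ± 0.19 (adjusted p = 1.04e-06, 5.8e-09 and 1.29e-05). With the authors' processed values Rps27 stood at 0.72 at 12 h and did not pass (adjusted p = 0.189). The other 10 of these 11 genes turned below 0 at 12 h with those values, none of them past the threshold, and all 11 stayed above 0 at 12 h under the other scalings and at 0 and 24 h under all 5.

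Rps19, whose gene is mutated in many patients with Diamond-Blackfan anaemia, read 9.98, 9.36 and 10.53 in wild type at 0 h, 9.95, 9.84 and 10.41 at 12 h, and 8.96, 9.12 and 9.55 at 24 h. The mutant arrays read 11.37, 11.33, 11.61, 11.42 and 11.70, then 11.48, 11.18, 11.53, 11.67 and 11.42, and then 10.44, 10.21, 10.41, 10.21 and 10.10. The groups stood apart at each time, by 1.53 ± 0.21, 1.39 ± 0.21 and 1.06 ± 0.21 (adjusted p = 5.54e-06, 2.6e-05 and 0.00128), but the 12 h difference was -0.13 with the authors' processed values (adjusted p = 0.824). Rpl9, a large-subunit protein near the stalk base, had wild-type levels of 11.26, 10.91 and 11.42, then 10.73, 10.33 and 11.11, then 10.04, 9.98 and 10.14. Its mutant levels were 12.23, 12.28, 12.57, 12.40 and 12.62, then 12.05, 12.12, 12.43, 12.09 and 12.34, then 11.09, 11.14, 11.20, 10.76 and 10.99. It was higher by 1.22 ± 0.16, 1.49 ± 0.16 and 0.98 ± 0.16, with no overlap, and stood at -0.073 at 12 h with the authors' values. Rps10 and Rps20, which sit side by side where a ubiquitin ligase marks collided ribosomes, were higher by 0.66, 0.90 and 0.75 and by 0.96, 0.95 and 0.78. Rpl24, which bridges both subunits, was higher by 0.96, 1.12 and 1.31 at 0, 12 and 24 h.

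Lower in mutant at all 3 times were 4 genes: Rps2, Rpl10, Rpl36a and Rpl38. Rps2 lies at the entrance of the mRNA channel of the small subunit. Its wild-type arrays read 12.81, 12.65 and 12.34 at 0 h, 13.001, 12.78 and 12.53 at 12 h, and 12.15, 11.90 and 11.77 at 24 h. Its mutant arrays read 11.40, 11.67, 11.95, 11.60 and 11.92, then 11.06, 11.39, 11.51, 11.44 and 11.29, and then 10.08, 10.33, 10.32, 10.18 and 10.05. No mutant array reached a wild-type array of its time, and the difference was -0.89 ± 0.15, -1.43 ± 0.15 and -1.75 ± 0.15 (adjusted p = 7.25e-05, 2.18e-07 and 2.56e-08). Rps2 was lower and past the threshold under all 5 scalings at 12 and 24 h, but at 0 h it stood at 0.11 with median centring over all probes.

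Rpl10 joins the large subunit in its last steps of assembly. In wild type it read 11.90, 11.60 and 11.85, then 12.47, 12.15 and 12.18, then 11.51, 11.05 and 11.39. In mutant it read 10.83, 11.06, 11.33, 11.06 and 11.50, then 10.91, 11.09, 11.40, 11.51 and 11.20, then 10.50, 10.003, 10.52, 10.33 and 10.28. It was lower by 0.63 ± 0.17, 1.04 ± 0.17 and 0.99 ± 0.17 with no overlap (adjusted p = 0.00622, 6.67e-05 and 0.000302). Rpl38, known in mouse from the Tail-short mutation, was 13.60, 13.44 and 13.75 in wild type at 0 h against 12.92, 13.13, 13.44, 12.96 and 13.44 in mutant. At 0 h these groups touch at 13.44, and a dim second probe of Rpl38 differed by 0.09 (adjusted p = 0.641). The difference was -0.42 ± 0.13, and it was -0.69 ± 0.13 and -0.73 ± 0.13 at 12 and 24 h, where the groups were apart. Rpl36a, near the exit site for tRNA, differed by -0.81, -0.66 and -0.73. At 0 h Rpl10, Rpl36a and Rpl38 turned above 0 under 2 of the 5 scalings.

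**Figure D2:**
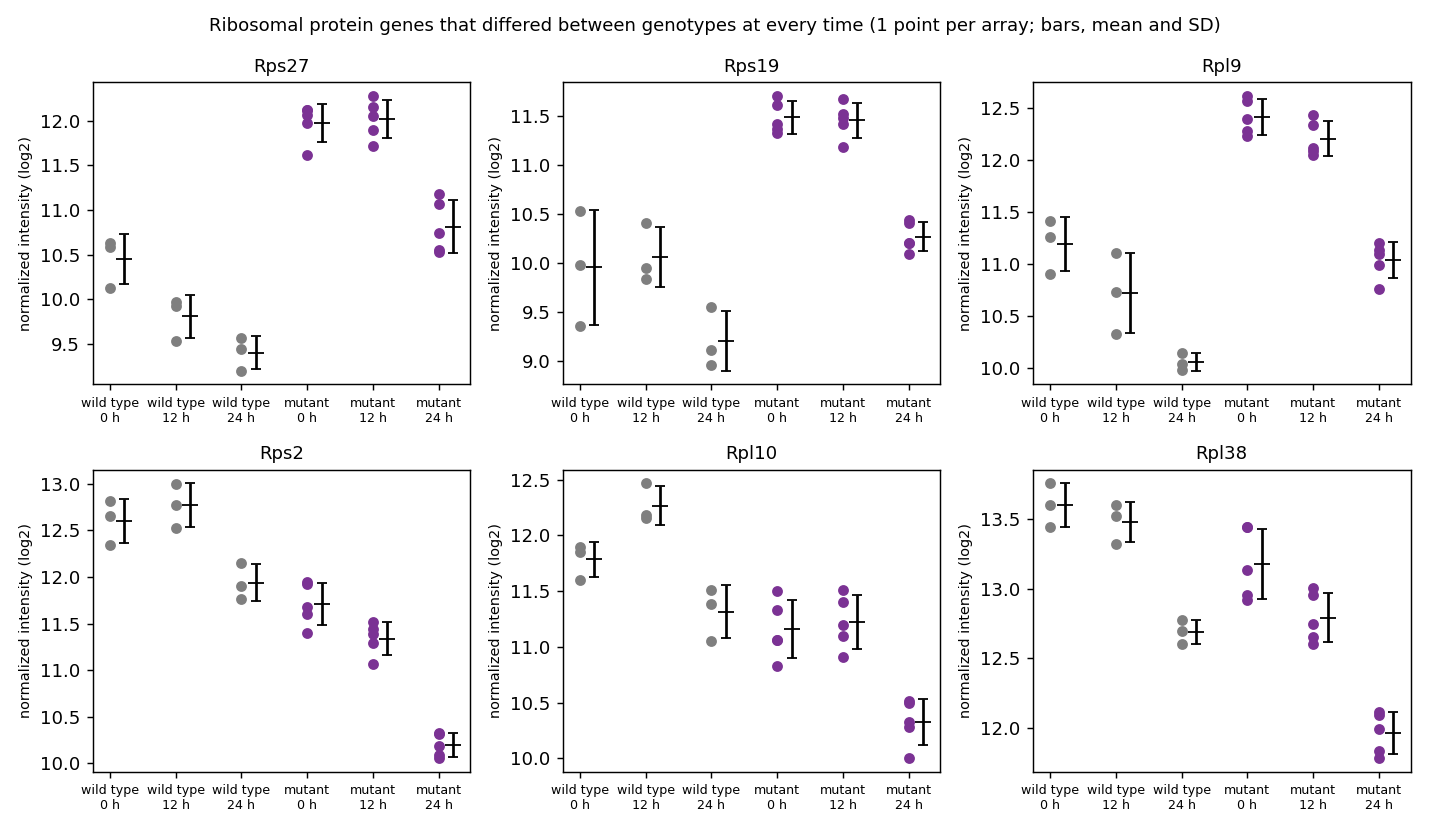
Normalized intensity (log2) of 6 ribosomal protein genes on each array, by genotype and time, with mean and SD as bars. Under the main scaling Rps27, Rps19 and Rpl9 lie higher in mutant at every time and Rps2, Rpl10 and Rpl38 lower, and all but Rps27 fell between 12 and 24 h in both genotypes.

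The largest differences at 0 h came from genes whose wild-type arrays spread widely. Rps15, a protein of the head of the small subunit, read 9.25, 5.16 and 8.52 in wild type and 10.44, 10.11, 10.35, 10.12 and 10.33 in mutant, a difference of 2.62 ± 0.51. It was not detected on wild-type array 2, and without the 4 arrays of high background the difference was 1.01, set against a single wild-type array. Rpl3, which reaches to the site of peptide bond formation, read 9.58, 9.001 and 7.36 against 10.32, 11.03, 11.55, 11.31 and 11.77. It was higher by 2.55 ± 0.40, and by 1.96 without those 4 arrays. Rps3 (1.62 ± 0.34) and Rps25 (1.72 ± 0.37) likewise came to 0.99 and 0.585 without them, and Rps25 then no longer passed (adjusted p = 0.118).

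Of the genes named for their place in the ribosome, Rplp1 did not pass between genotypes at any time (0.25, -0.14 and 0.07). Rplp0 was lower in mutant at 12 h (-1.07 ± 0.34, adjusted p = 0.0143) and did not pass at 0 or 24 h (-0.45 and -0.47). Without the 4 arrays of high background the difference at 0 h was -1.81, which rests on a lone wild-type array at 7.18. Its wild-type arrays read 6.76, 6.89 and 6.73 at 12 h and its mutant arrays 6.23, 5.82, 5.59, 5.32 and 5.65, with no overlap, but it stood at 0.12 and 0.15 under both median centrings. Rpl5, which carries 5S ribosomal RNA into the large subunit, did not pass at any time (0.68, 0.59 and -0.29; adjusted p = 0.0536, 0.0786 and 0.472). Rps6 did not pass either (0.24, 0.55 and 0.56; adjusted p = 0.452, 0.0621 and 0.114). Rpl41 was lower at 0 h (-0.32 ± 0.09) and at 24 h (-0.65 ± 0.09).

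**Figure D3:**
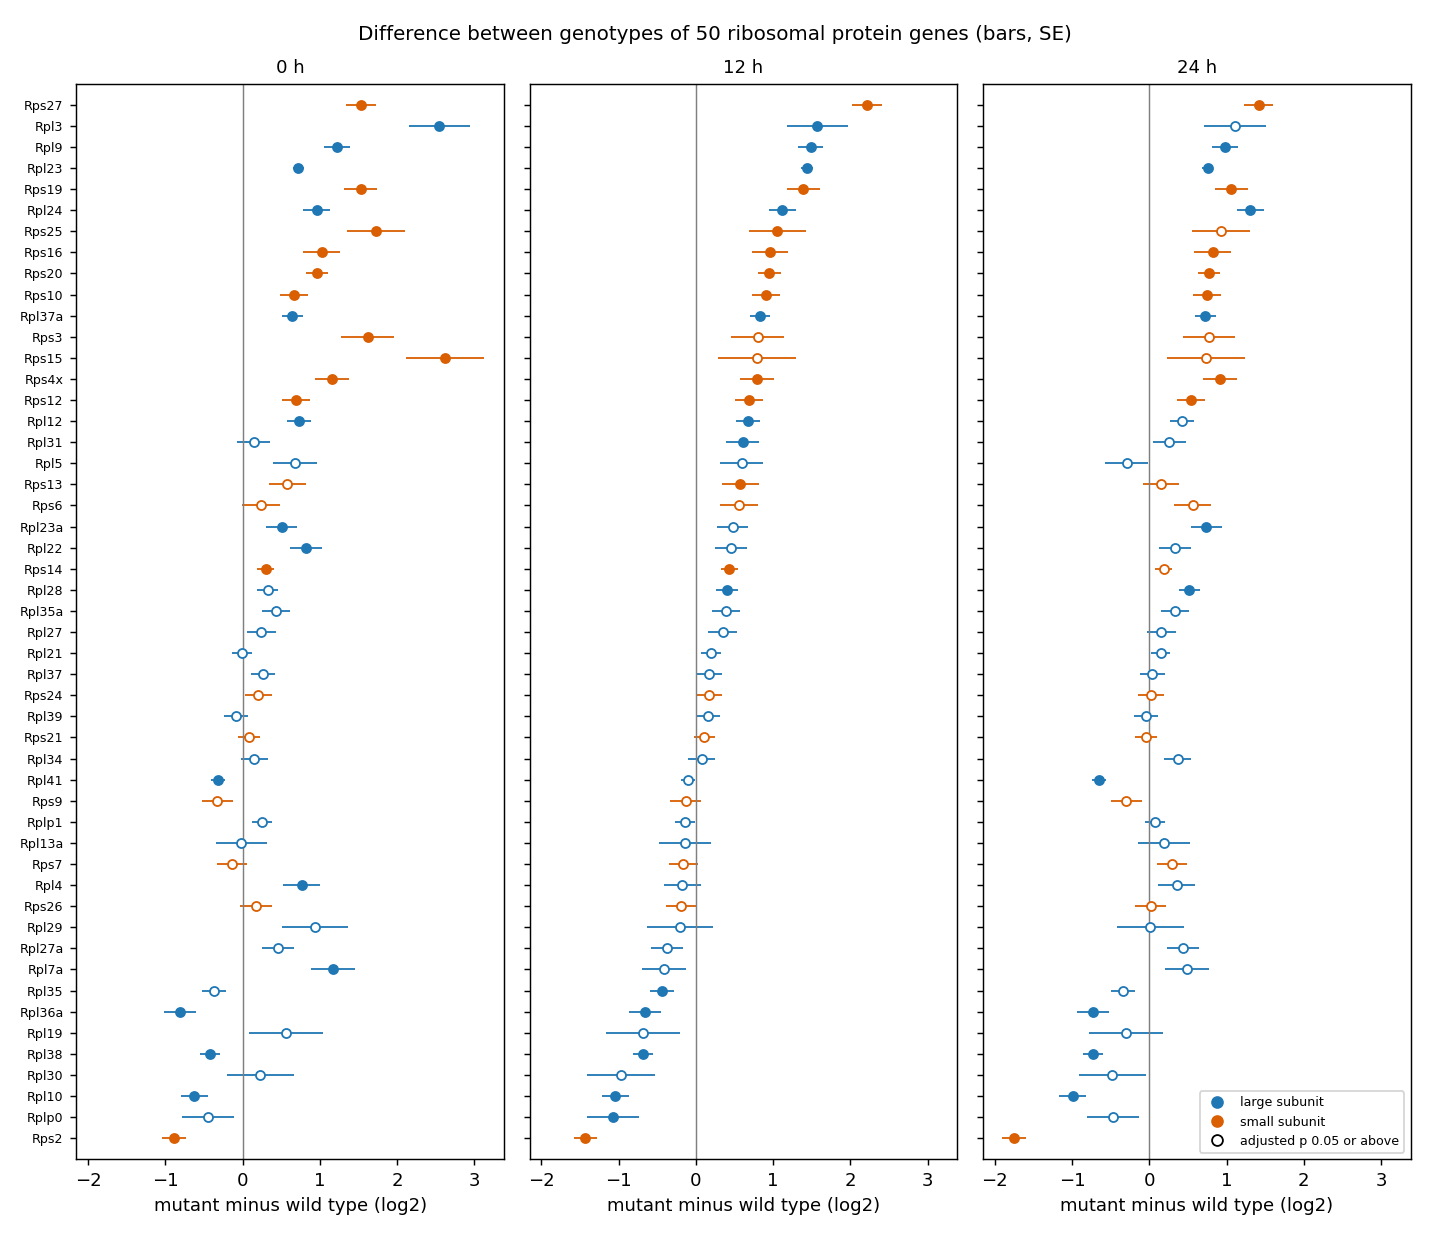
Difference between mutant and wild type (log2) of the 50 ribosomal protein genes at 0, 12 and 24 h, with standard errors as bars. Under the main scaling points lie on both sides of 0 at each time, from Rps2 at -0.89, -1.43 and -1.75 to values above 1 for Rps27 and Rps19.

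When each array was instead centred on the median of the 50 genes themselves, differences became relative to the list, and members fall on both sides of 0 by construction. Relative to the list Rps27, Rps19, Rps25 and Rpl3 were higher in mutant at all 3 times, and Rps2, Rps9, Rpl10, Rpl35, Rpl36a and Rpl38 lower. Under this centring Rps2 differed by -1.80, -2.17 and -2.16 and Rps27 by 1.11, 1.71 and 0.96. This centring was added after the data had been seen.

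The subunits were compared by their counts and medians. Their probes differ in detection. Rpl4, Rpl7a, Rpl13a, Rpl21, Rpl22, Rpl27a, Rpl30 and Rplp0, all of the large subunit, had mean levels of 5.00 to 7.03. Their probes were detected on 3 to 22 arrays. The lowest mean level in the small subunit was 8.32, for Rps25, detected on 23 arrays. The part of detection in the subunit differences was not tested. At 0 h 10 of 31 large and 11 of 19 small subunit genes were higher in mutant, with medians of 0.32 and 0.66. At 12 h 8 and 10 were higher, with medians of 0.15 and 0.69, and at 24 h 6 and 7, with medians of 0.19 and 0.56. Lower in mutant were 4, 5 and 4 large subunit genes and at each time 1 small subunit gene, Rps2. The median difference of the small-subunit genes was above that of the large-subunit genes at each time under all 5 scalings. Centring moves all genes of an array equally, so the median centrings give the same difference between the subunits by construction. The authors' values follow the raw intensity along a straight line on each array, which largely fixes that difference too. Likeness over these scalings is therefore no separate check of a difference between the subunits. The difference of the subunit medians within an array, large minus small, was 0.07, 0.07 and 0.04 in wild type at 0 h and -0.46, -0.27, -0.25, -0.10 and -0.21 in mutant. These groups did not overlap, also under the other 4 scalings, to which the same limit applies. At 12 h the wild-type arrays read 0.30, -0.20 and -0.07 and the mutant arrays -0.27 to -0.11, and at 24 h -0.07 to -0.03 and -0.23 to 0.12. At both of these times the groups overlapped. Between 12 and 24 h the median difference was -0.74 over the large and -0.86 over the small subunit genes in wild type, and -0.81 and -1.08 in mutant. The difference between the subunits in this change was not tested.

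**Figure D4:**
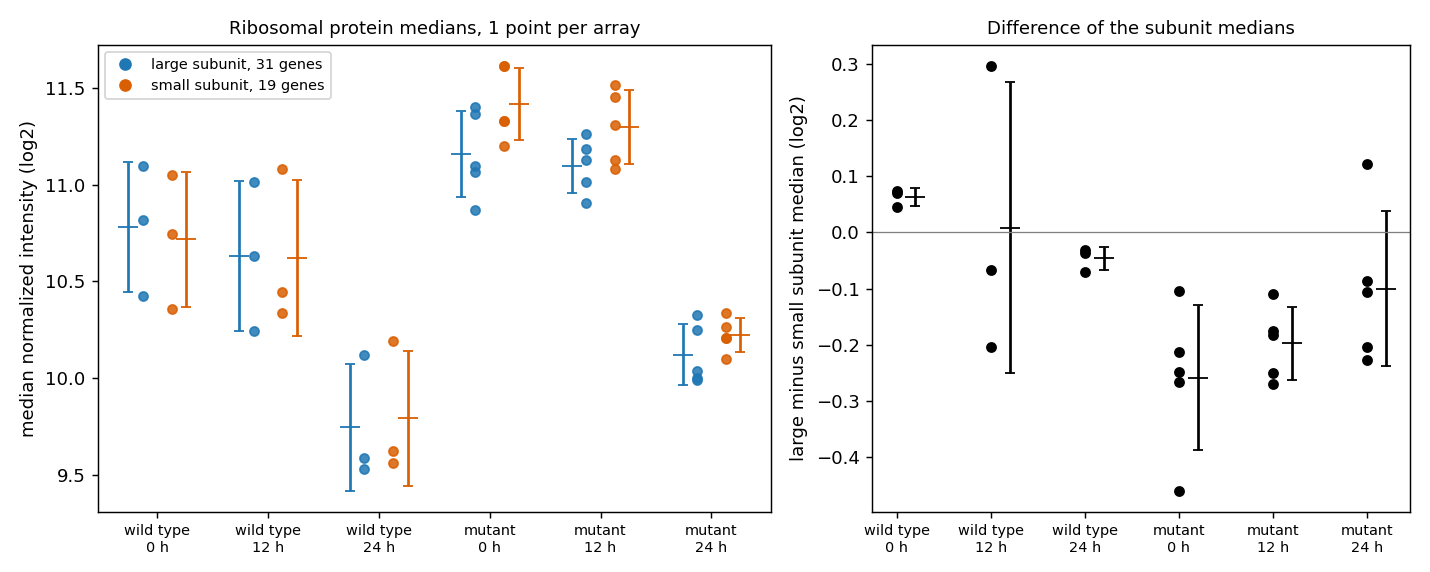
Left, median normalized intensity (log2) of the 31 large and 19 small subunit genes on each array; right, large minus small. The medians are lowest at 24 h in both genotypes, and at 0 h the wild-type arrays (0.04 to 0.07) and the mutant arrays (-0.46 to -0.10) do not overlap on the right.

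From 0 to 12 h few members moved under the main scaling. In wild type 8 of the 50 rose and 3 fell, where 35.9% of all genes rose and 8.75% fell, and in mutant 2 rose and 2 fell (23.2% and 4.62%). Of the 144 other genes detected on all arrays 11.1% rose and 2.78% fell in wild type, and 13.2% rose and 2.78% fell in mutant. The median difference was 0.0027 in wild type and -0.05 in mutant, against 0.36 and 0.25 over all genes. Rpl7a rose in wild type from 5.47, 4.82 and 4.78, at which it was not detected on any array, to 6.88, 6.92 and 7.84. That is at least 1.055-fold (adjusted p = 8.24e-06). Rps27 (-0.64 ± 0.21) and Rpl9 (-0.47 ± 0.18) fell in wild type. Rpl38 (-0.39 ± 0.11) and Rps2 (-0.37 ± 0.13) fell in mutant. The interaction of genotype and this change passed for Rpl23 (0.72 ± 0.11, adjusted p = 9.28e-05) and Rpl7a (-1.59 ± 0.41, adjusted p = 0.00918). The second Rpl23 probe did not pass (0.17 ± 0.25, adjusted p = 0.703). This interaction passed for 15.6% of all genes, 3.36% as higher and 12.2% as lower, and of the 144 others 2.78% and 0.694%. With the replicate number as a block it passed for 6 of the 50 in place of 2. Over the whole culture, from 0 to 24 h, 35 genes fell and 1 rose in wild type (12.2% and 37.1% of all genes), and 40 fell and 2 rose in mutant (15.1% and 29.5%), but under 2 other scalings the members that passed were all rises. Of the 144 others 27.1% fell and 26.4% rose in wild type, and 20.8% fell and 39.6% rose in mutant.

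The direction of changes from 0 h rests on the scaling. With median centring over all probes 42 of the 50 rose from 0 to 12 h in wild type and none fell, where 16.2% of all genes rose and 4.37% fell. With the authors' processed values 48 rose and none fell (51.1% and 7.8% of all genes). With centring over the 235 probes detected on all arrays 4 rose and 20 fell (2.1% and 86.6%). In mutant the median centring over all probes gave 17 rising and none falling (23.9% and 6.4%), the centring over the 235 probes none rising and 3 falling (1.67% and 21.6%), and with the authors' values none passed (9.27% and 4.42%).

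The change from 0 to 24 h turned as well. In wild type median centring over all probes gave 14 rises and no fall among the 50, where 17% of all genes rose and 4.64% fell. The authors' values gave 45 rises and no fall (43.1% and 12.2%), and centring over the 235 probes no rise and 41 falls (4.64% and 84.8%). In mutant these scalings gave 2 rises and no fall (18% and 15.2% of all genes), 39 rises and no fall (40% and 8.32%), and 1 rise and 49 falls (6.09% and 79.5%). No direction of level is therefore given to the list from 0 h to either later time. Relative to the 144 other genes detected on all arrays, the 37 stood lower at 24 h than at 0 h. Under the main scaling the mean gap went from 0.46 to -0.68 in wild type and from 1.69 to 0.01 in mutant. With the authors' values, which largely share this gap, it went from 0.35 to -0.67 and from 1.48 to 0.0035. The limit of the detection filter given above applies here too.

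Between 12 and 24 h the direction held in wild type under all 5 scalings and in mutant under 4. All 26 wild-type falls had the same sign under all 5 scalings, and 10 passed under the 4 other than the authors' processed values, with which 1 gene fell. In wild type 10 genes fell with median centring over all probes, where 1.18% of all genes fell and 1.38% rose. With centring over the 235 probes 26 fell (1.75% and 4.56%), without background correction 25 (2.1% and 3.74%), and none rose. The 1 fall with the authors' values compares with 3.45% falling and 3.63% rising among all genes. In mutant 39 of the 40 called differences had the same sign under the 4 scalings other than the authors' values and 25 passed in each, but over all 5 only 2 kept their sign and 1, Rpl7a, passed in each. The mutant counts were 26 falls and 1 rise with median centring over all probes (35.6% and 7.53% of all genes), 48 and 1 with centring over the 235 probes (62.8% and 6.42%), and 38 and 2 without background correction (12.3% and 11.4%). With the authors' processed values the mutant median was 0.35, with 3 genes higher and none lower (19.1% and 2.41% of all genes), while the 144 other genes detected on all arrays moved by 1.31. On each array the authors' values follow the raw intensity along a straight line, which largely fixes the gap between the 37 and the 144 genes. With them that gap went from 1.29 ± 0.16 at 12 h to 0.0035 ± 0.10 at 24 h (SD, n = 5).

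In the genotype comparison the splits also moved. At 0 h median centring over all probes gave 41 of the 50 higher and 1 lower in mutant, where 36.6% of all genes were higher and 0.908% lower. Centring over the 235 probes gave 20 and 7 (10.6% and 52.5%), no background correction 23 and 6 (36.5% and 8.63%), and the authors' values 24 and none (34.8% and 3.4%). At 12 h median centring over all probes gave 21 higher and 3 lower (63.6% and 5.94%) and centring over the 235 probes 31 and 5 (66% and 5.39%). No background correction gave 18 and 7 there (29.6% and 15.5%), and the authors' values none higher and 23 lower (6.62% and 17.6%). At 24 h the same 4 scalings gave 18 and 2 (8.96% and 1.59%), 20 and 4 (8.61% and 4.66%), 13 and 5 (8.61% and 8.09%), and 5 and 4 (25.2% and 6.91%). The members' shares therefore stood above or below those of all genes depending on the scaling. At 0 h 16 of the 26 called genes passed with the same sign under all 5 scalings, among them Rps27, Rps19, Rps20, Rpl9 and Rpl24. At 12 h 3 did (Rps2, Rpl10 and Rpl38), and at 24 h 3 (Rps2, Rps27 and Rpl41).

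**Figure D5:**
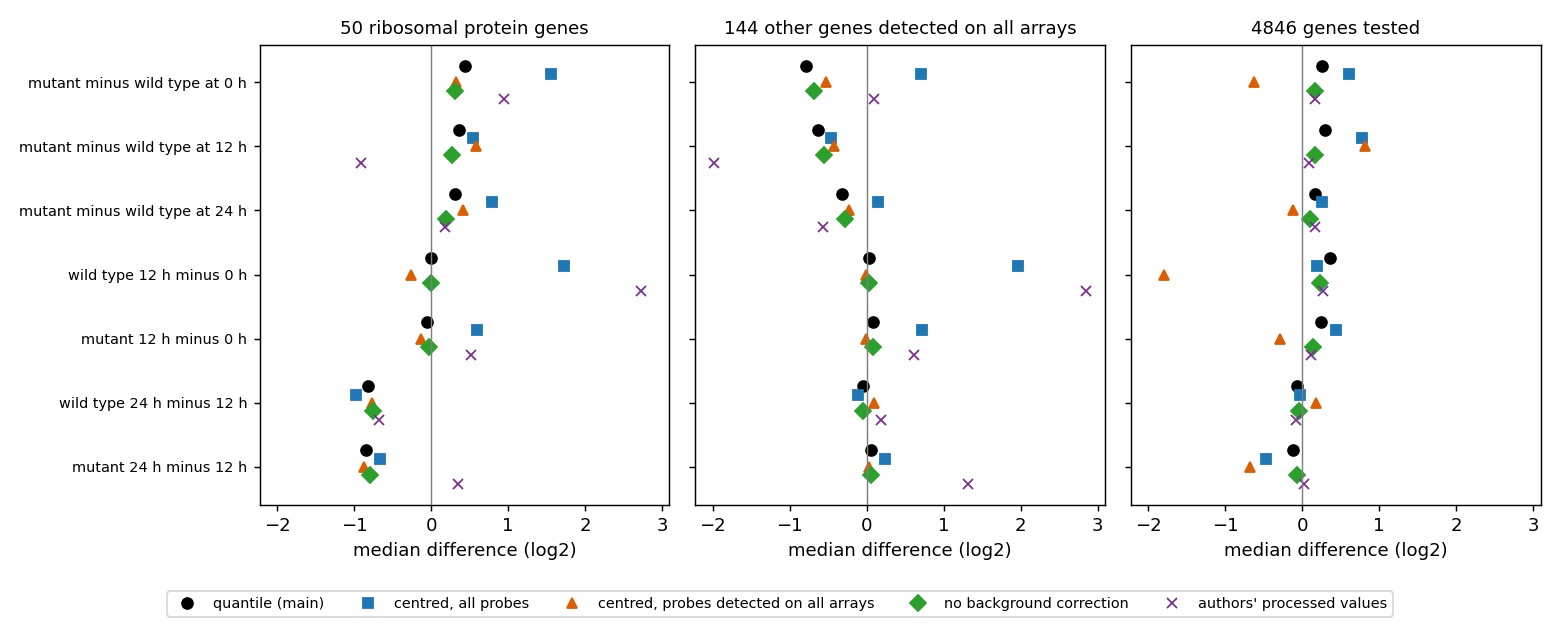
Median log2 difference of the 50 ribosomal protein genes, of the 144 other genes detected on all arrays and of all 4846 genes, for each comparison under 5 scalings. Between 12 and 24 h the ribosomal protein median is near -0.8 in both genotypes under the main scaling, and under the authors' values it is above 0 in mutant (0.35), where the 144 others are at 1.31.

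Other parts of the translation machinery were read from lists of named genes. Of 54 tested mitochondrial ribosomal proteins, which serve the separate ribosome of mitochondria, 22, 21 and 4 were higher in mutant and 1, 2 and 2 lower at 0, 12 and 24 h. Beside these counts and those of the lists below, 34.1%, 34.3% and 8.61% of all genes were higher in mutant at the 3 times. Lower were 8.4%, 15.9% and 8.17%. From 12 to 24 h 1 mitochondrial ribosomal protein gene rose in wild type, and 1 rose and 8 fell in mutant, with medians of -0.09 and -0.21. Over that interval 3.94% of all genes rose and 1.88% fell in wild type, and 12.6% rose and 14.6% fell in mutant. Of 12 other mRNAs with a terminal oligopyrimidine start, chiefly elongation and initiation factors, 6 were higher and 1 lower in mutant at 0 h. Between 12 and 24 h 3 of them fell and 1 rose in mutant, with a median of -0.40, and in wild type the median was -0.41. Eef1g, a subunit of elongation factor 1, was higher in mutant by 3.00 ± 0.39 at 0 h and 1.71 ± 0.39 at 12 h, while Eef1d, another subunit, was lower by 1.604 ± 0.21, 1.92 ± 0.21 and 1.40 ± 0.21. For Eef1d the 0 h value was 0.17 under 1 of the 5 scalings. Of 4 tested paralogs and fusion genes, Fau, which encodes a ubiquitin-like protein fused to the small-subunit protein eS30, was higher by 3.11 ± 0.44 at 0 h and fell in mutant after 12 h by 1.42 ± 0.38. Rps27l, the paralog of Rps27, was higher by 1.81 ± 0.24 and 1.20 ± 0.24 at 0 and 12 h. In wild type at 0 h Fau read 9.47, 5.92 and 7.78, Eef1g 9.09, 7.05 and 6.86, and Rps27l 5.62, 4.67 and 4.76. The mutant arrays then read 10.24 to 11.26, 9.78 to 11.12 and 6.51 to 7.14. Wild-type arrays 2 and 3, both of high background, were the lower ones each time, so the size of these differences at 0 h rests in part on them. Of 22 ribosome biogenesis genes 14 and 7 were higher and 1 and 2 lower in mutant at 0 and 12 h.

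Of 7 tested genes of ribosome rescue and quality control, Ube2o stood out by its size. It encodes a ubiquitin ligase that is abundant in reticulocytes and is known to mark unassembled ribosomal proteins for degradation. In wild type it read 14.02, 13.87 and 13.60 at 0 h, 14.83, 14.09 and 13.68 at 12 h, and 14.09, 14.02 and 14.09 at 24 h. In mutant it read 10.40, 10.10, 10.12, 9.77 and 9.78, then 10.58, 10.63, 10.44, 10.24 and 10.02, and then 12.96, 13.04, 13.04, 13.27 and 13.04. The mutant arrays lay below all wild-type arrays at each time, far below at 0 and 12 h and nearer at 24 h. The differences were -3.80 ± 0.19, -3.82 ± 0.19 and -0.996 ± 0.19 (adjusted p = 2.07e-13, 2e-13 and 0.00067), and they kept their sign and passed under all 5 scalings. In mutant Ube2o rose between 12 and 24 h by 2.69 ± 0.16, the interval over which the ribosomal protein mRNAs fell. The relation of Ube2o to the ribosomal protein levels was not tested.

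Markers of other blood cells moved with the genotype comparison. In the B cell list 11 of 12 tested genes passed as higher in mutant at 0 h and 10 at 12 h. In the T cell list 8 and 7 of 9 did so, in the neutrophil list 7 and 5 of 10, in the platelet list 6 and 6 of 8, and in the monocyte and macrophage list 2 and 2 of 4. Of all genes 34.1% and 34.3% passed as higher at these times. Summed normalized intensity of the B cell markers was 264 to 1023 in wild type and 2137 to 7708 in mutant at 0 h, 1105 to 1610 and 2576 to 7918 at 12 h, and 688 to 1302 and 1087 to 2774 at 24 h. The T cell sum was 309 to 746 and 698.5 to 1808 at 0 h, 761 to 776 and 829 to 1347 at 12 h, and 382 to 463 and 403 to 644 at 24 h. The neutrophil sum was 561 to 1962 and 3333 to 12730, then 970 to 1884 and 2609 to 10040, and then 958 to 1798 and 1669 to 8507. The platelet sum was 102 to 640 and 1340 to 2617, then 293 to 1756 and 1648 to 3248, and then 414 to 2960 and 2348 to 3431. The monocyte and macrophage sum was 44.6 to 799 and 1516 to 5220, then 185 to 444 and 895 to 2853, and then 319 to 731 and 618 to 1735. The erythroid sum was 69840 to 73640 in wild type and 63210 to 72370 in mutant at 0 h, 64740 to 67780 and 69520 to 78920 at 12 h, and 76980 to 83820 and 81330 to 88080 at 24 h. The sum of proliferating erythroblast markers went the other way. It was 4506 to 5397 in wild type and 1462 to 2878 in mutant at 0 h. Later it was 2812 to 3609 and 1324 to 2388 at 12 h, and 1597 to 2084 and 805 to 1380 at 24 h. Of its 11 genes with a probe, 2 were detected on any wild-type array at 0 h and 6 on any mutant array. On every array of the group 1 was detected in wild type and 2 in mutant. The sum therefore rests on few genes and does not stand for the list, whose detection went the opposite way at 0 h. Pax5 and Ebf1 of the B cell list, Cd4, Cd8a and Cd5 of the T cell list, Mmp8, Elane and Mpo of the neutrophil list, Ccr2 and Fcgr1 of the monocyte list and Tubb1 of the platelet list were detected in no group. The same held for Ccna2, Cdk1, Pcna and Stmn1 of the proliferating erythroblast list. From 12 to 24 h 7 B cell and 4 T cell markers fell in mutant, where 14.6% of all genes fell. The part of other cells in the ribosomal protein differences was not tested.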

How the data were processed

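Total RNA of reticulocytes was amplified, labelled with biotin and hybridised to Illumina bead arrays, per the labels' protocols. The deposited table gives a raw intensity per probe, neither normalized nor background-subtracted by the authors, beside the detection p-value of each probe. The authors' processed intensity values are linear, by a method the sources do not state. Column names were tied to samples through the authors' key, which writes 15 h where the labels write 12 h. The labels' time is used. Neither a genome build nor software versions are given in the sources used here.

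Intensities were corrected with normexp, using control levels that limma infers from detection p-values, given an offset of 16, normalized by quantiles and log2-transformed (limma 3.58.1, neqc, R 4.3.3). Of 25697 probes 6312 were detected (p below 0.01) on at least 3 of 24 arrays, which left 4846 genes with 1 probe each, the brightest. Linear models with 6 group means and an intensity trend were fitted in limma, and 11 comparisons were adjusted by Benjamini and Hochberg. The method was tested on simulated data with independent normal noise. Those data lack the values shared by rank and the high background of some 0 h arrays. The number of arrays limits the precision.

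Scalings set beside the main one were median centring over all probes, median centring over 235 probes detected on all arrays, no background correction, and the authors' processed values. The other alternatives were no filter, only the groups compared, array weights, the replicate number as a block, the mean of a gene's probes, leaving out each array, and, added after seeing the data, centring on the 50 ribosomal protein genes and leaving out or keeping only 4 arrays of high background. Residuals of same-numbered arrays correlated by 0.31 or more between 12 and 24 h in wild type. In mutant the lowest such correlation was 0.18 for 12 with 24 h and 0.11 for 0 with 12 h. Between 12 and 24 h all 3 wild-type arrays correlated best with the array of their own number. In mutant 3 of 5 did so for 12 with 24 h and 2 of 5 for 0 with 12 h. For 0 with 24 h in mutant the lowest same-number correlation was -0.085, though 4 of 5 arrays correlated best with their own number. Whether the numbers pair the arrays is therefore not settled, above all in mutant. The reported fit has no block, and the blocked fit is an alternative. For 0 with 12 h in wild type the lowest same-number correlation was 0.0031, and 2 of 3 arrays correlated best with their own number. For 0 with 24 h in wild type all 3 did so, at correlations of 0.030 to 0.091.

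Named in each comparison are up to 5 of the largest called rises and falls, given groups without overlap and a probe that every array of at least 1 group detects. Stalk and 5S particle proteins, Rps6 and Rps19 are also named, with up to 4 genes per interaction and up to 3 per list of other genes. Rpl24, Rps10, Rps20, Rpl28 and the further genes set beside these were named for their role or promoter. The members and all lists were chosen with earlier results of these data known. Sequences are RefSeq's (GRCm38.p6). Figures were drawn with matplotlib 3.10.9.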

Additional observations from a re-analysis of the deposited data

Results flagged for a closer look

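Among 30 named genes and the array medians of the list and of the subunit difference in the 3 mutant groups of 5, 10 values lay far from the other 4 arrays of their group. About 1 in 20 groups would be marked so by chance. At 0 h these were Rps25 on array 4 (8.66, others 9.25 to 9.44), Rps27 on array 1 (11.61, others 11.97 to 12.12), Rpl4 on array 2 (4.89, others 5.78 to 6.13), and Rpl23 and Rps12 on array 4 (14.25 and 14.02, where the other 4 arrays share the single values 14.34 and 14.25). At 12 h they were Rpl23 on array 2 (14.56, the others all 14.49), Rpl35 on array 5 (11.74, others 12.07 to 12.15) and Rpl27a on array 1 (5.08, others 5.41 to 5.53). At 24 h they were Rps3 on array 5 (9.58, others 9.86 to 9.91) and Rpl35a on array 2 (9.53, others 9.87 to 9.99).

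The change over time differed between genotypes for 3 genes by the interaction test. From 0 to 12 h these were Rpl23 (0.72) and Rpl7a (-1.59), and from 12 to 24 h Rpl23 (-0.69) and Rpl41 (-0.56). Their sign did not hold under every scaling except for Rpl41 (-1.46 to -0.14 over 5 scalings). The Rpl7a probe was detected on no wild-type array at 0 h, so the size of its interaction is uncertain. A second Rpl23 probe, detected on all 24 arrays, passed in neither interaction (0.17 and -0.24, adjusted p = 0.703 and 0.752).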

How the results depend on the processing

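Of 2195 values of single genes and summaries under 36 alternatives, 1869 kept direction and side of the threshold, 126 lost the threshold, 48 gained it, 82 moved and 70 turned in sign, 27 of them with the authors' processed values. Without an alternative, 26 between genotypes at 0 h, 24 between genotypes at 12 h, 18 between genotypes at 24 h, 11 from 0 to 12 h in wild type, 26 from 12 to 24 h in wild type, 36 from 0 to 24 h in wild type, 4 from 0 to 12 h in mutant, 40 from 12 to 24 h in mutant, 42 from 0 to 24 h in mutant, 2 in the interaction to 12 h and 2 in the interaction from 12 to 24 h passed of the 50 genes. Leaving out 1 array at a time gave between genotypes at 0 h 24 at the least and 31 at the most, between genotypes at 12 h 18 at the least and 27 at the most, between genotypes at 24 h 13 at the least and 19 at the most, from 0 to 12 h in wild type 7 at the least and 12 at the most, from 12 to 24 h in wild type 16 at the least and 29 at the most, from 0 to 24 h in wild type 33 at the least and 40 at the most, from 0 to 12 h in mutant 1 at the least and 4 at the most, from 12 to 24 h in mutant 38 at the least and 40 at the most, from 0 to 24 h in mutant 40 at the least and 42 at the most, in the interaction to 12 h 2 at the least and 7 at the most and in the interaction from 12 to 24 h 1 at the least and 2 at the most. With the replicate number as a block the counts, in the same order of comparisons, were 31, 26, 19, 15, 31, 36, 5, 41, 42, 6 and 2, and only the interaction to 12 h moved by over 1.5 times, to 6. Over the fits that leave out 1 array, Rplp0 at 0 h ranged from -0.92 to 0.29, Rps6 at 0 h from -0.025 to 0.56, and Rplp1 from -0.26 to 0.030 at 12 h and from -0.054 to 0.29 at 24 h. None of these had passed the test with all arrays. Median centring over all probes gave 42 called genes between genotypes at 0 h, 42 from 0 to 12 h in wild type, 10 from 12 to 24 h in wild type, 14 from 0 to 24 h in wild type (all higher), 17 from 0 to 12 h in mutant, 2 from 0 to 24 h in mutant (both higher) and 1 in the interaction from 12 to 24 h. The sign also changed between genotypes at 0 h for Rps2 (0.11), Rpl36a (0.70), Rpl10 (0.60) and Rplp0 (0.23), between genotypes at 12 h for Rplp0 (0.12) and Rplp1 (0.29) and between genotypes at 24 h for Rplp0 (0.15) and Rpl5 (0.29). Signs differed as well from 0 to 12 h in wild type for Rps27 (1.31) and Rpl23 (1.10), from 0 to 24 h in wild type for Rpl35 (0.085), Rpl31 (0.49), Rpl23a (0.39) and Rps13 (0.71) and in the interaction to 12 h for Rpl23 (-0.15). Centring over the 235 probes detected on all arrays gave 24 called genes from 0 to 12 h in wild type, 15 in the interaction to 12 h and 4 in the interaction from 12 to 24 h. It turned the sign between genotypes at 0 h for Rplp1 (-0.39), between genotypes at 12 h for Rplp0 (0.15) and Rplp1 (0.32) and from 0 to 12 h in wild type for Rpl7a (-0.42). The sign also changed from 12 to 24 h in mutant for Rpl27a (-0.16), in the interaction to 12 h for Rpl7a (0.51), Rpl27a (1.02) and Rpl4 (1.24) and in the interaction from 12 to 24 h for Rpl27a (-0.23). Use of the authors' processed values gave 9 called genes between genotypes at 24 h, 48 from 0 to 12 h in wild type, 1 from 12 to 24 h in wild type, 0 from 0 to 12 h in mutant, 3 from 12 to 24 h in mutant and 43 in the interaction to 12 h. A change of sign was also seen between genotypes at 0 h for Rpl36a (0.19) and Rpl10 (0.26), between genotypes at 12 h for Rpl9 (-0.073), Rpl23 (-0.080), Rps19 (-0.13), Rpl5 (-0.93) and Rps6 (-0.95) and between genotypes at 24 h for Rplp1 (-0.32). It turned the sign from 0 to 12 h in wild type for Rps27 (2.09) and Rpl23 (2.54), from 0 to 24 h in wild type for Rps6 (1.19), Rpl35 (1.75), Rpl31 (1.86), Rpl23a (1.91) and Rps13 (1.46) and from 12 to 24 h in mutant for Rpl12 (0.020), Rps15 (0.11), Rps12 (0.15) and Rpl35a (0.31). The sign also changed from 0 to 24 h in mutant for Rps13 (0.38), Rps6 (0.62), Rps2 (0.64), Rpl12 (0.70) and Rps15 (0.57), in the interaction to 12 h for Rpl23 (-1.54) and in the interaction from 12 to 24 h for Rpl23 (0.41) and Rps27 (0.40). Dropping the filter gave 1 called gene in the interaction from 12 to 24 h. Fitting only the groups compared gave 29 called genes between genotypes at 24 h, 6 from 0 to 12 h in wild type and 4 in the interaction from 12 to 24 h. Weighting the arrays gave 16 called genes between genotypes at 0 h, 41 between genotypes at 12 h, 34 between genotypes at 24 h, 8 in the interaction to 12 h and 15 in the interaction from 12 to 24 h. The sign also changed between genotypes at 12 h for Rplp1 (0.029). The replicate block gave 6 called genes in the interaction to 12 h. Averaging a gene's probes gave 2 called genes from 0 to 12 h in mutant and 1 in the interaction from 12 to 24 h. It turned the sign from 0 to 12 h in wild type for Rpl23 (0.059). Centring on the 50 genes gave 15 called genes between genotypes at 12 h, 6 from 12 to 24 h in wild type, 11 from 0 to 24 h in wild type, 0 from 0 to 12 h in mutant, 2 from 12 to 24 h in mutant, 2 from 0 to 24 h in mutant, 11 in the interaction to 12 h and 1 in the interaction from 12 to 24 h. Signs differed as well between genotypes at 0 h for Rplp1 (-1.07) and Rps6 (-0.23), between genotypes at 12 h for Rpl5 (-0.020) and Rps6 (-0.057) and between genotypes at 24 h for Rplp1 (-0.51). A change of sign was also seen from 0 to 12 h in wild type for Rpl7a (-0.30), in the interaction to 12 h for Rpl7a (0.46), Rpl27a (0.97) and Rpl4 (1.19) and in the interaction from 12 to 24 h for Rpl27a (-0.051). Leaving out the 4 arrays of high background, with 1 wild-type array left at 0 h that is assumed to vary like the other groups, gave 5 called genes from 0 to 12 h in wild type and 5 in the interaction to 12 h. Keeping only those 4 arrays at 0 h turned the sign between genotypes at 0 h for Rplp0 (0.11) and Rps6 (-0.052). The cause of these shifts was not tested. The brightest probes share values by rank, which understates their spread. Each group has 3 or 5 arrays, and their number limits the precision. Centring on the 50 genes and the 2 settings on the 4 arrays were chosen after seeing the data.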

Other observations

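Several genes carry more than 1 probe past the filter, and the probes did not always move alike. For Rpl23 the brightest probe was higher in mutant by 0.72, 1.44 and 0.75 at 0, 12 and 24 h, while a second probe, detected on all 24 arrays, did not pass (0.23, 0.41 and 0.17; adjusted p = 0.29, 0.0547 and 0.503). Between 12 and 24 h in mutant both fell, by 0.61 and 0.69. For Rpl38 the brightest probe fell between 12 and 24 h in wild type by 0.79 while a dim probe, detected on 10 arrays, rose by 0.51 (adjusted p = 0.0489). Both were lower in mutant at 12 and 24 h, by 0.69 and 0.93 and by 0.73 and 1.13. Both probes of Rps9, each detected on all 24 arrays, fell in mutant alike, by 0.88 and 0.85. For Rps3 both probes were higher in mutant at 0 h, by 1.62 and 2.88.

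The rank of a probe among all 25697 of its array is unaffected by any scaling of that array. Counting from the brightest, the median rank of the 50 genes was 109.5 to 153 in wild type at 0 h, 111.5 to 163.5 at 12 h and 176 to 233 at 24 h. In mutant it was 88.5 to 109.5, 92.5 to 109.5 and 160 to 181.5. In each genotype the 24 h arrays thus lay further down than all 0 h and all 12 h arrays. Rps27 moved from rank 190 to 235 in wild type at 12 h to rank 52 to 75 in mutant, and Rps2 from rank 30 to 44 to rank 85 to 110.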
